A study of Mus musculus with 32 samples.

Results

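Gcg and 9 further genes of enteroendocrine cells, namely Pyy, Insl5, Sct, Chga, Chgb, Scg5, Tph1, Neurod1 and Fev, were followed in sorted colonic progenitor cells with and without a muscarinic agonist. They are 10 of the 23517 genes in the deposited table. For comparison served 56 others in it from a list drawn up for enteroendocrine cells, called other enteroendocrine genes below. How specific these 56 are to such cells was not tested. The 10 genes were chosen by their levels and paired responses in earlier results of these same libraries, so their responses to the agonist are described here without a test.

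Colonoids, which are epithelial organoids grown from colonic crypts in L-WRN medium, came from the proximal colon of 8 Lgr5-EGFP-IRES-CreERT2 mice, in which the Lgr5 locus drives EGFP and an inducible Cre. For each mouse, Lgr5-EGFP+ cells were sorted both without treatment and after 4 days in 250 nM bethanechol (Bch), an agonist of muscarinic acetylcholine receptors that was renewed daily. The mice are numbered BR1 to BR4 and BR7 to BR10, and each mouse and treatment gave 2 libraries labelled as technical replicates, which were summed, so that 32 libraries became 16 sums. The labels call BR1-BR4 male and give no sex for BR7-BR10, and the series counts 4 female and 4 male mice. The sets were also labelled with different sources (sorted cells against colonic organoids) and different RNA extraction kits (RNeasy Plus Micro against RNeasy Mini), so sex, kit and source cannot be told apart. The age of the mice is not stated beyond being matched, and most libraries were made from 3000 sorted cells, with 13114 for untreated BR1, 3504 for Bch-treated BR1, 2401 for untreated BR9 and 2361 for untreated BR3.

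Enteroendocrine cells are rare hormone-secreting cells of the gut epithelium that arise from crypt stem cells through the transcription factors Neurog3 and Neurod1. In the colon, L cells make proglucagon from Gcg, which is cut into glucagon-like peptides, together with peptide YY and insulin-like peptide 5, while enterochromaffin cells make serotonin with the enzyme encoded by Tph1. Both kinds of cell store their products in granules that contain the chromogranins. In bulk cells, fewer cells of a type and less RNA per cell cannot be told apart.

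The 16 sums held 557512 to 4050342 unique molecular identifiers (UMIs, each a counted molecule), and a gene with 0 UMIs could still make up 0.712 CPM in the deepest and 5.28 CPM in the shallowest sum, taking 3 UMIs as the limit. CPM are counts per 1000000 UMIs after TMM scaling, and these limits cover counting error only. Lgr5, the gene whose reporter was sorted on, averaged 34.7 ± 4.14 CPM (SD, n = 4) in untreated BR1-BR4 and 19.3 ± 5.78 in untreated BR7-BR10, and lay between 12.2 and 38.8 in the untreated sums. Markers of differentiated cells were also present, since the summed level of 10 goblet cell markers, led by Spink4 and Agr2, ranged from 3485 to 14066 CPM over the 16 sums and that of 10 colonocyte markers, led by Car1 and Guca2a, from 668 to 1823. Xist averaged 100.1 ± 47.8 CPM in untreated BR7-BR10 and 19.5 ± 4.98 in untreated BR1-BR4, where it was never 0, and the Y-linked gene Eif2s3y averaged 6.01 ± 1.79 and 43.0 ± 7.88 CPM, so that each was also read, at a lower level, in the other set. The part of such signal in the levels below was not tested.

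To show the sequence upstream of Gcg beside that of 3 members with other patterns over the mice, the 250 bases before the start are given for Gcg, Pyy, Sct and Chga. They were taken from the RefSeq promoter table of GRCm38.p6, which had entries for 10 of the 10 genes, and they are written from 5′ to 3′ on the strand of the gene. Capitals mark matches on either strand to TATAAA, the core promoter box, and to CAGATG. The latter is one form of the E-box CANNTG, which basic helix-loop-helix factors such as Neurod1 bind, and the motifs were picked after the sequences had been looked at. Gcg lies on the minus strand of chromosome 2 (gene 62474530 to 62483650, shown 62483654 to 62483903), Pyy on the minus strand of chromosome 11 (gene 102106676 to 102107832, shown 102107833 to 102108082), Sct on the minus strand of chromosome 7 (gene 141278330 to 141279133, shown 141279134 to 141279383) and Chga on the plus strand of chromosome 12 (gene 102554969 to 102565028, shown 102554691 to 102554940). None of the stretches reaches into its gene as annotated.
Gcg: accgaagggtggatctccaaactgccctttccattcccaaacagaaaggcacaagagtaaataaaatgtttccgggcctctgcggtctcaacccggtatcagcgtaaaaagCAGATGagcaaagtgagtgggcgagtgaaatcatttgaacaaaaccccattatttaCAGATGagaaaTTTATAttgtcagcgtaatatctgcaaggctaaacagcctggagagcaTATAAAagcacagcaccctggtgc
Pyy: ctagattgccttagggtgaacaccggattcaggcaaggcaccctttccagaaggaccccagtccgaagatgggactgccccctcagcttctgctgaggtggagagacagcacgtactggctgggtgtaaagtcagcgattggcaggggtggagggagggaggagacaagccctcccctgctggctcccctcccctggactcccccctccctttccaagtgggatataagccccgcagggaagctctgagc
Sct: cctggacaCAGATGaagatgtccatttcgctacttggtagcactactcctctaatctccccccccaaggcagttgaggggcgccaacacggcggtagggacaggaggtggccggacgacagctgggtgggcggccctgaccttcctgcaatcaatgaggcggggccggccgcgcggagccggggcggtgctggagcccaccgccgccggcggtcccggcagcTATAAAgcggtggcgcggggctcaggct
Chga: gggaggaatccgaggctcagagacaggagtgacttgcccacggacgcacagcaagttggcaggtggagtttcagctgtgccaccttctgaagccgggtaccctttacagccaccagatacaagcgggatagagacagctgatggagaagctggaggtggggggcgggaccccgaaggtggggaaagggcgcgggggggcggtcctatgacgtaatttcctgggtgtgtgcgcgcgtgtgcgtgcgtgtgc
The Gcg stretch held 2 copies of TATAAA, of which 1 reads TTTATA because it is on the other strand, and 2 copies of CAGATG, which begin 139 and 83 bases before the start. Sct held 1 copy of each, while Pyy and Chga held neither. Of 32851 promoter stretches of the same length, 12.4% held TATAAA, 14.4% held CAGATG and 66.2% held any CANNTG, a motif that includes CAGATG. Among the other members, an entry of Insl5 held both motifs, and Chgb held TGACGTCA, a cAMP response element found in 1.55% of stretches, at a place inside the annotated span of the gene, which is why it is not shown. A match describes letters only.

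Gcg was lower with Bch in each of BR7, BR8, BR9 and BR10, while BR1-BR4 went both ways. In untreated BR7, BR8, BR9 and BR10 it measured 328, 44.1, 29.6 and 31.4 CPM, and with Bch 149, 26.8, 20.6 and 19.7 CPM. Thus Bch-treated cells held 45.5%, 60.8%, 69.5% and 62.8% of the untreated level of the same mouse. The groups overlapped, because BR7 with Bch lay above the other 3 mice without it, and in BR9 (59 against 46 UMIs) and BR10 (105 against 46) the 95% counting intervals of untreated and Bch-treated cells overlapped. The log2 difference of Bch minus untreated in the paired fit was -0.81 (SE 0.17, n = 4 mice). Of all 9515 genes in that fit, 4.98% were lower in 4 of 4 mice and 6.45% higher in 4 of 4.

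In untreated BR1, BR2, BR3 and BR4 Gcg measured 18.4, 34.2, 31.7 and 29.5 CPM, and with Bch 17.3, 60.0, 87.4 and 20.4 CPM. BR2 and BR3 were higher with Bch, at 176% and 276% of the untreated level, and BR1 and BR4 were lower, at 94.2% and 69.1%. The paired log2 difference was 0.43 (SE 0.23, n = 4), with 0.26 without BR2, 0.14 without BR3 and 0.76 without BR4, and untreated BR3 rests on 18 UMIs of the shallowest sum. The ratios of the 4 mice ran from -0.51 to 1.44 on the log2 scale. Of all 9509 genes in this set, 7.49% were lower in 4 of 4 mice and 7.83% higher. The difference of both responses, BR7-BR10 minus BR1-BR4, was -1.25 for Gcg on the log2 scale (SE 0.29), given without a test, while of 10280 genes fitted for that difference 0% passed an adjusted p of 0.05 (edgeR quasi-likelihood, and 0 by DESeq2), with 451 at an unadjusted p under 0.05.

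**Figure D1:**
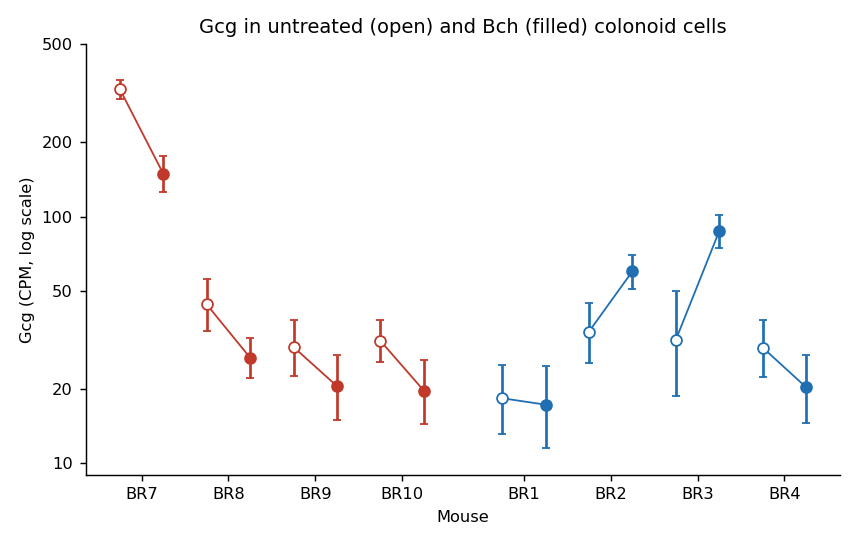
Gcg in CPM on a log axis for each mouse, untreated (open) and Bch-treated (filled), with BR7-BR10 in red and BR1-BR4 in blue; bars are exact 95% binomial intervals of the counts. The lines of BR7 to BR10 all slope down, from 328 to 149 CPM in BR7, while BR2 and BR3 slope up.

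Gcg in BR7 exceeded that of the other 3 mice of its set in both treatments, and the spread between mice of BR7-BR10 rested on it. Among 9515 genes, the SD of log2 CPM between untreated BR7-BR10 ranked 3rd for Gcg, at 1.63 against a median of 0.29, and without BR7 it was 0.30 and ranked 3837, against a median of 0.25. In BR1-BR4 it was 0.39, ranking 3637 of 9509. Of the sum of squares of Gcg in BR7-BR10, 91.6% lay between mice and 7.6% between treatments, and in BR1-BR4 67.4% and 7.36%, where the median gene had 44.5% and 6.87% and 46.6% and 9.25%. Without BR7 the shares of Gcg in BR7-BR10 turned to 32.5% between mice and 66.3% between treatments. The shares of the median gene without BR7 were not computed. BR7 was left out after its values were seen, and Gcg was chosen by its response, so these shares are no measure of a treatment effect. Without BR7, Gcg averaged 35.0 ± 7.89 CPM (SD, n = 3) untreated and 22.4 ± 3.88 with Bch, and 3 of 3 mice were lower with Bch. Group means with BR7 were 108 ± 147 and 54.1 ± 63.5 CPM, against 28.4 ± 6.97 and 46.3 ± 33.6 CPM in untreated and Bch-treated BR1-BR4 (n = 4 each). By these means untreated BR7-BR10 came first, then Bch-treated BR7-BR10, Bch-treated BR1-BR4 and untreated BR1-BR4, and each neighbouring pair overlapped. Without BR7 the order was Bch-treated BR1-BR4, untreated BR7-BR10, untreated BR1-BR4 and Bch-treated BR7-BR10.

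The other hormones of L cells did not follow Gcg in every mouse. Pyy, which encodes peptide YY, measured 299.95, 167, 141 and 316 CPM in untreated BR7, BR8, BR9 and BR10 and 461, 118, 158 and 227 CPM with Bch, so BR7 and BR9 were higher with Bch and BR8 and BR10 lower. BR7, with the lowest ratio for Gcg, had the highest ratio for Pyy in its set. In untreated BR1 to BR4 Pyy measured 86.9, 139, 123 and 99.6 CPM, and with Bch 95.5, 225, 142 and 78.9 CPM. BR4 was lower and the other mice higher, and the paired log2 differences were -0.07 (SE 0.15) in BR7-BR10 and 0.20 (SE 0.13) in BR1-BR4.

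Insl5 encodes insulin-like peptide 5, a hormone of colonic L cells. It measured 33.3, 4.41, 6.02 and 5.38 CPM in untreated BR7, BR8, BR9 and BR10 and 14.6, 4.51, 4.02 and 17.6 CPM with Bch. BR7 was thus highest untreated, as for Gcg, and lower with Bch, whereas BR10 was higher with Bch by 1.55 on the log2 scale. The paired log2 difference of 0.05 (SE 0.38) rested on single mice, being 0.59 without BR7 and -0.66 without BR10. In BR1-BR4 it ranged from 2.63 to 7.04 CPM untreated and from 1.79 to 4.56 with Bch, on 3 to 12 UMIs a sum, and did not pass the filter on low counts there. Sct encodes secretin, a hormone that drives bicarbonate secretion. It measured 91.5, 144, 139 and 47.5 CPM in untreated BR7, BR8, BR9 and BR10 and 127, 173, 101 and 40.3 CPM with Bch, and 105, 68.4, 93.3 and 49.8 CPM in untreated BR1 to BR4 against 119, 67.6, 67.3 and 73.0 CPM with Bch. In each set 2 mice were higher and 2 lower, with paired log2 differences of -0.01 (SE 0.15) and 0.10 (SE 0.14), and BR7 was not the highest mouse.

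The granule proteins differed from one another. Chga, which encodes chromogranin A, measured 85.1, 51.0, 68.3 and 45.4 CPM in untreated BR7, BR8, BR9 and BR10 and 70.9, 43.7, 45.2 and 63.4 CPM with Bch, so 3 of 4 were lower. In BR1 to BR4 it measured 25.7, 57.2, 35.2 and 36.1 CPM untreated and 26.3, 66.9, 52.7 and 37.2 CPM with Bch. All 4 of these were higher, in BR1 and BR4 by 0.03 and 0.04 on the log2 scale, and with CPM from raw totals 1 of the 4 was lower. The paired log2 differences were -0.15 (SE 0.18) in BR7-BR10 and 0.20 (SE 0.18) in BR1-BR4.

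Chgb, which encodes chromogranin B, measured 113, 93.8, 86.3 and 56.5 CPM in untreated BR7, BR8, BR9 and BR10 and 230.5, 76.9, 96.6 and 104 CPM with Bch. It was higher with Bch in 3 of these 4 mice, with BR7 and BR10 at 204% and 184% of their untreated level, and the paired log2 difference was 0.43 (SE 0.17), with 0.24 without BR7 and 0.69 without BR8. In BR1 to BR4 it measured 44.6, 126, 59.8 and 69.6 CPM untreated and 30.4, 87.8, 104 and 78.4 CPM with Bch, with 2 mice higher, 2 lower and a difference of -0.06 (SE 0.16). Scg5 encodes a granule chaperone of the prohormone convertase Pcsk2 and was at the limit of detection, with 3, 1, 3 and 3 UMIs in untreated BR7, BR8, BR9 and BR10 and 5, 6, 5 and 8 with Bch. It was higher with Bch in these 4 mice and in 3 of BR1-BR4, which held 0 to 4 UMIs a sum, and it did not pass the filter on low counts in either set.

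Tph1, which encodes the rate-limiting enzyme of serotonin synthesis outside the brain, had the widest spread of responses between mice of the 8 members fitted in BR7-BR10. It measured 13.4, 17.0, 18.6 and 5.68 CPM in untreated BR7, BR8, BR9 and BR10 and 39.6, 7.36, 10.3 and 27.9 CPM with Bch. BR7 and BR10 were higher with Bch, at 295% and 491% of the untreated level, and BR8 and BR9 were lower. The paired log2 difference was 0.46 with an SE of 0.71, and it was 0.10 without BR7, 1.02 without BR8, 0.91 without BR9 and -0.18 without BR10. Mice accounted for 20.6% of the sum of squares, treatment for 6.73% and the rest for 72.6%. With 1 sum per mouse and treatment, differing responses of mice and error of counting, culture or sorting cannot be told apart in this rest. In BR1 to BR4 it measured 9.19, 13.2, 19.4 and 15.2 CPM untreated and 4.18, 14.8, 13.6 and 14.9 CPM with Bch, with a difference of -0.27 (SE 0.31).

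Of the transcription factors, Neurod1, which acts downstream of Neurog3 in endocrine commitment, held 10, 6, 3 and 0 UMIs in untreated BR7, BR8, BR9 and BR10 and 4, 23, 13 and 6 with Bch. In untreated BR1 to BR4 it held 2, 2, 0 and 4 UMIs and with Bch 4, 8, 5 and 7. It was higher with Bch in 7 of the 8 mice, BR7 being the exception, but at 0 to 6.40 CPM it passed the filter in neither set. Its annotated span overlaps Cerkl on the same strand and a noncoding gene, Gm26755, on the other, and the handling of strand and shared reads is not stated, so its counts are uncertain. Fev, a factor of serotonin-producing cells, measured 14.7, 3.15, 9.54 and 4.48 CPM in untreated BR7, BR8, BR9 and BR10 and 9.39, 2.61, 4.92 and 3.86 CPM with Bch, a paired log2 difference of -0.56 (SE 0.42). In BR1 to BR4 it measured 2.30, 3.95, 10.6 and 3.05 CPM untreated and 1.19, 2.66, 6.03 and 2.98 CPM with Bch, and did not pass the filter there. It was lower with Bch in 8 of 8 mice, though in BR4 by 0.03 on the log2 scale with 6 UMIs on either side, and every sum held 2 to 23 UMIs.

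**Figure D2:**
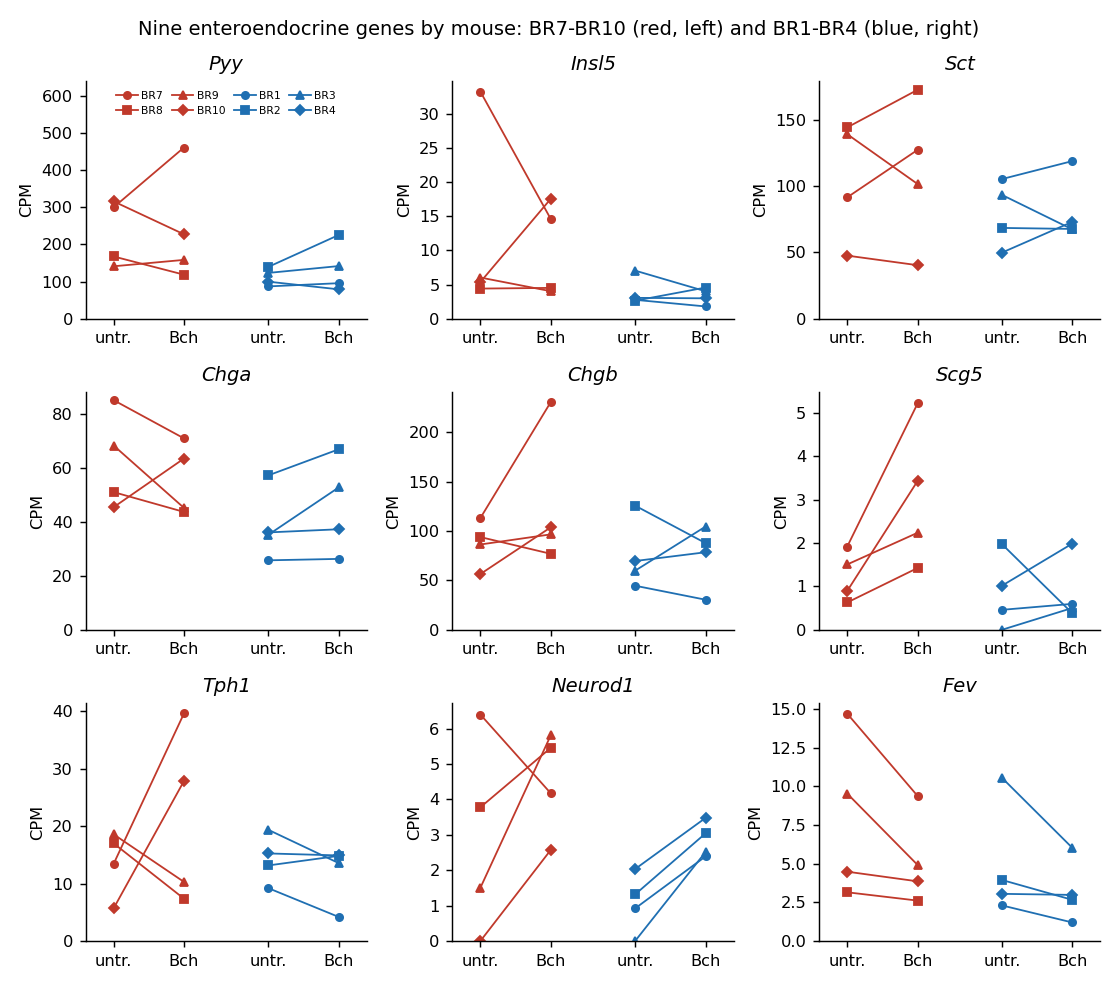
Levels of the other 9 genes in CPM, 1 panel per gene, with a line from untreated (untr.) to Bch for each mouse, BR7-BR10 in red and BR1-BR4 in blue. Lines cross in most panels, those of Fev all slope down, and BR7 and BR10 alone slope steeply up for Tph1.

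**Figure D3:**
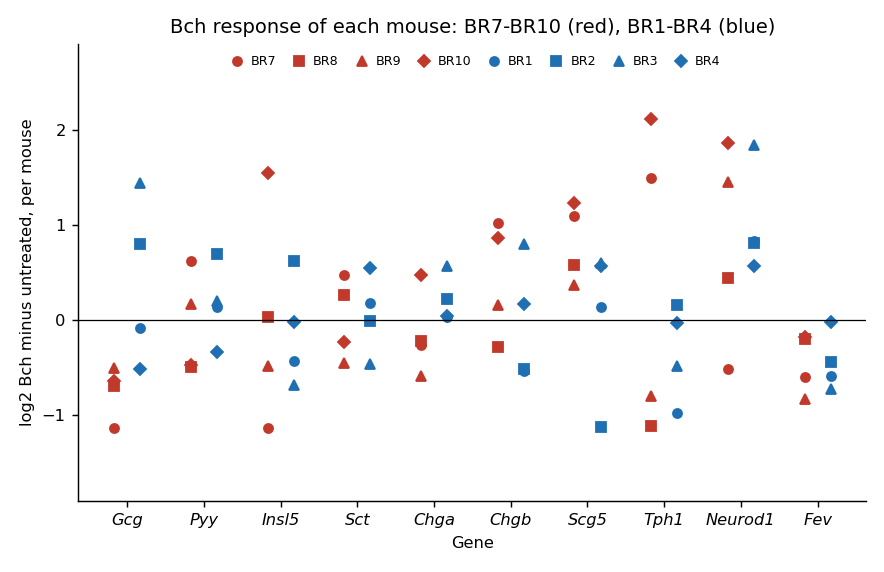
Response of each gene in each mouse as log2 Bch minus untreated, with a prior count of 2, so that a point above 0 is higher with Bch. For Gcg the 4 points of BR7-BR10 lie between -1.13 and -0.51 and those of BR1-BR4 between -0.51 and 1.44.

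Counted by mouse, 4 to 6 of the 10 genes were higher with Bch and the others lower in each of the 8 mice. The summed level of the 10 genes was 501 to 987 CPM in untreated and 449 to 1112 CPM in Bch-treated BR7-BR10, and 296 to 448 and 298 to 533 CPM in BR1-BR4. Of the 8 members that could be fitted in BR7-BR10, the median log2 difference was -0.04, beside -0.002 over all genes, and of the 6 in BR1-BR4 it was 0.15, beside 0.001. Over all genes, 0% of 9515 passed an adjusted p of 0.05 in BR7-BR10 (edgeR quasi-likelihood, and 0 by DESeq2), where 2.48% were higher and 1.3% lower at an unadjusted p under 0.05, and 0.021% of 9509 passed in BR1-BR4, where 4.46% and 3.26% did.

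Untreated colonoid cells were then set side by side between the mouse sets. The 10 genes were chosen by their levels among other values, so these differences are a description with no test. Of the 7 members that passed the filter, 6 had a higher fitted level in BR7-BR10 and 1 a lower one, where 4383 of all 9159 genes were higher and 4776 lower. Over all these genes, 0.972% passed an adjusted p of 0.05 as higher and 0.666% as lower in BR7-BR10 (edgeR quasi-likelihood), and 7.78% did not overlap between the sets. At an unadjusted p under 0.05, 6.66% of all these genes were higher and 6.05% lower in BR7-BR10. Pyy, with 141 to 316 CPM in BR7-BR10 and 86.9 to 139 in BR1-BR4, did not overlap, and its log2 difference was 1.07 (SE 0.30). Chga differed by 0.69 (SE 0.23) and Insl5 by 1.80 (SE 0.70), both with overlap. Gcg differed by 1.93 with an SE of 1.02, with BR7 far above the other 3 mice of its set, and without BR7 it differed by 0.33. Insl5 without BR7 differed by 0.67, and Pyy by 0.94. Sct differed by 0.42, Chgb by 0.20 and Tph1 by -0.02, with SE of 0.41, 0.33 and 0.35. Of markers of other cell types, 0 of 10 goblet cell markers passed an adjusted p of 0.05 between the untreated sets (edgeR quasi-likelihood, with 3 higher and 1 lower in BR7-BR10 at an unadjusted p under 0.05), 9 of the 10 were higher in BR7-BR10, and their sum was 3485 to 9245 CPM in BR7-BR10 against 4423 to 6801 in BR1-BR4. Of 7 colonocyte markers tested, 7 were higher in BR7-BR10, 5 of them at an unadjusted p under 0.05, and 1 was called, the water channel gene Aqp8 (log2 difference 1.81, SE 0.43, adjusted p = 0.0321, edgeR quasi-likelihood). The sum of 10 was 970 to 1823 against 854 to 1377 CPM, with overlap. Of 9 stem cell markers tested, 7 were lower, 4 of them at an unadjusted p under 0.05, and 2 were called, Ascl2 at -0.51 (SE 0.13, adjusted p = 0.0319) and Axin2 at -0.84 (SE 0.22, adjusted p = 0.0472), with the sum of 10, led by Ascl2, at 768 to 820 against 933 to 1084 CPM and no overlap. Aqp8 and Axin2 are named after their values were seen, and the part of these markers in the differences was not tested.

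**Figure D4:**
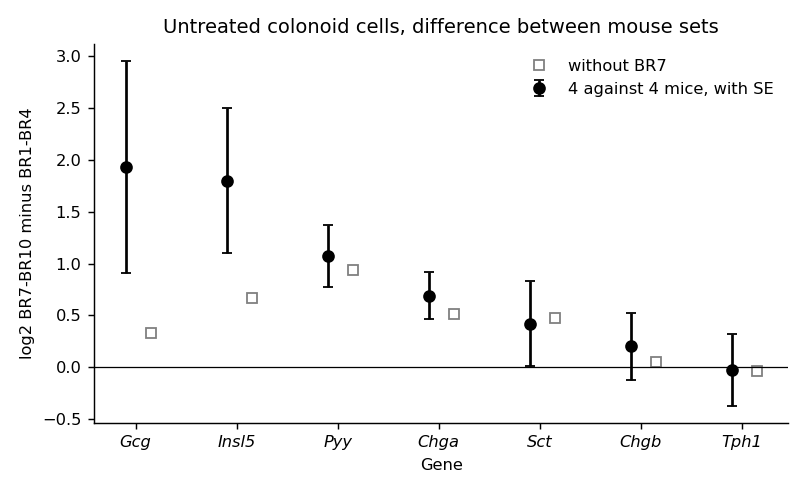
Difference of untreated BR7-BR10 minus untreated BR1-BR4 on the log2 scale for the 7 genes that passed the filter, with SE (black), and the same without BR7 (grey squares). Gcg goes from 1.93 to 0.33 and Insl5 from 1.80 to 0.67, while Pyy goes from 1.07 to 0.94.

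Of the 56 other enteroendocrine genes in the table, 15 could be tested in BR7-BR10. Of these, 0 passed an adjusted p of 0.05 in edgeR or in DESeq2, and 3 in edgeR and 1 in DESeq2 had an unadjusted p under 0.05. The 3 were lower with Bch, where 1.3% of all genes were lower at that p, as were 9 of the 15 in all, where 4801 of all 9515 genes were lower, and the median log2 difference was -0.08. Ghrl, which encodes ghrelin, measured 28.1, 13.2, 6.02 and 5.08 CPM in untreated BR7, BR8, BR9 and BR10 and 10.4, 3.32, 3.58 and 4.71 CPM with Bch, lower in 4 of 4 mice by -1.14 on the log2 scale (SE 0.38, unadjusted p = 0.0045, adjusted p = 0.999, edgeR quasi-likelihood). Scgn, which encodes the calcium sensor secretagogin, was also lower in 4 of 4 mice (log2 difference -0.72, SE 0.36, adjusted p = 0.999), and Tac1, the precursor of substance P, in 3 of 4 (-0.83, SE 0.42, adjusted p = 0.999). Foxa2 and Slc5a1, a factor of endocrine differentiation and the sodium-glucose cotransporter, had the smallest p among those with a positive difference, at 0.25 (SE 0.24) and 0.19 (SE 0.18).

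In BR1-BR4, 12 of these genes could be tested, 0 passed in edgeR, and 0 had an unadjusted p under 0.05 in edgeR or in DESeq2, which gave no adjusted p for them, with 8 lower, where 4730 of all 9509 genes were lower, and a median of -0.08. Among negative differences, the smallest p belonged to Neurog3, the factor that commits cells to the endocrine fate, with a log2 difference of -0.36 (SE 0.42), and to Slc5a1 at -0.10 (SE 0.18), and among positive ones to Foxa1 at 0.05 (SE 0.24) and Mlxipl at 0.09 (SE 0.42). Between the untreated sets 13 could be tested and 0 passed (edgeR quasi-likelihood, and 0 of the 8 to which DESeq2 gave an adjusted p). In edgeR 3 of the 13 had an unadjusted p under 0.05, all higher in BR7-BR10, where 6.66% of all genes were higher and 6.05% lower at that p. These were the fatty acid receptor gene Ffar4 at 0.38 (SE 0.16, adjusted p = 0.285), Ddc, which completes serotonin synthesis, at 0.63 (SE 0.23, adjusted p = 0.191), and Foxa2 at 0.60 (SE 0.28, adjusted p = 0.369). Whether their counts came from enteroendocrine or from other epithelial cells was not tested.

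By role, the genes with the highest mean level over the 16 sums were Cck and Tac1 among the other hormones (30.3 and 6.34 CPM), Bex2 and Pam among granule and processing genes (12.1 and 8.61), Ffar4 and Slc5a1 among nutrient receptors and transporters (77.6 and 44.6), Ddc and Maob in serotonin metabolism (31.4 and 0.746) and Foxa1 and Foxa2 among transcription factors (25.6 and 17.9). None of these 10 was called where it could be tested, and Tac1 was tested in BR7-BR10 only. Their log2 differences with Bch in BR7-BR10 were -0.24 for Cck, -0.52 for Bex2, 0.32 for Pam, -0.03 for Ffar4, -0.08 for Ddc and 0.21 for Foxa1, and in BR1-BR4 0.03, -0.14, -0.06, 0.01, -0.0003 and 0.05, while Maob, at 0 to 4 UMIs a sum, was tested in neither. Of 14 genes for receptors or clearance of the hormones, 4 were in the table. The highest were Dpp4, the protease that inactivates glucagon-like peptide 1, with a mean of 12.4 CPM, and the serotonin receptor gene Htr4, with 2.30 CPM. Dpp4 had log2 differences of 0.16 in BR7-BR10 and 0.53 in BR1-BR4, where it was higher in 4 of 4 mice, with no adjusted p under 0.05.

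Markers of tuft, neural, stromal and immune cells were low. The summed level of 11 tuft cell markers in the table, led by Rgs13 and Dclk1, was 5.37 to 23.4 CPM over the 16 sums, that of 4 neuron and glia markers, led by Tubb3 and S100b, was 0 to 7.04 and that of 5 stroma and immune markers, led by Vim and Lyz2, was 0 to 10.4. Ptprc, which marks leukocytes, had 0 UMIs in BR7-BR10, and 1 or 2 of the tuft cell, 0 to 3 of the neuron and glia and 0 to 2 of the stroma and immune markers were at 0 in all mice of a group. The 6 secretory progenitor markers, led by Sox4 and Hes6, summed to 480.04 to 822 CPM. In BR7-BR10, of 10 goblet cell markers 7 were higher with Bch, 3 lower and 0 called (edgeR quasi-likelihood), where 4714 of all 9515 genes were higher. At an unadjusted p under 0.05, 2 were higher, where 2.48% of all genes were. These were Fcgbp at 0.77 (SE 0.19) and Muc2 at 0.45 (SE 0.16) on the log2 scale, named after their values were seen. Both were higher in 4 of 4 mice, where 6.45% of all genes were. The sum of the 10 goblet cell markers was 9245, 5642, 7834 and 3485 CPM in untreated BR7, BR8, BR9 and BR10 and 14066, 5296, 5227 and 6749 CPM with Bch. This sum, led by Spink4 and Agr2, was thus higher with Bch in BR7 and BR10 and lower in BR8 and BR9, while Gcg was lower in all 4. The part of goblet cell markers in the Gcg values was not tested.

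Likeness to Gcg was measured as Pearson's r of log2 CPM, centred on the mean of each set, over the 16 sums, which share mice, libraries and depth between them. It is given as a description with no test. Of 10279 other genes, Cck, the gene for cholecystokinin, came first with r = 0.88, followed by Laptm4a, Ccl9, Gpx2, Cyb561d2, Alkbh6, Tox, Ergic1, Gm5617 and Ghrl, the last with 0.79. Cck measured 100.4, 14.5, 20.6 and 16.7 CPM in untreated BR7, BR8, BR9 and BR10 and 56.3, 13.8, 22.4 and 17.1 CPM with Bch, and 10.6, 49.3, 29.9 and 19.8 CPM in untreated BR1 to BR4 and 14.3, 39.5, 43.7 and 16.4 CPM with Bch. BR7 was the highest mouse for both genes. Among the members, Chga ranked 50 (r = 0.70), Pyy 58 (0.68), Insl5 62 (0.68), Fev 113 (0.64), Chgb 213 (0.59), Tph1 1421 (0.34) and Sct 4886 (0.02).

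Without BR7, over 14 sums, only 1 of the 10 genes most like Gcg, Cyb561d2, stayed among the first 10. Cck then ranked 41 (r = 0.68), Scgn 5 (0.80), Chga 55 (0.67), Pyy 254 (0.55), Chgb 263 (0.54) and Insl5 3351 (0.14). Chga thus moved by few places and Insl5 by many.

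**Figure D5:**
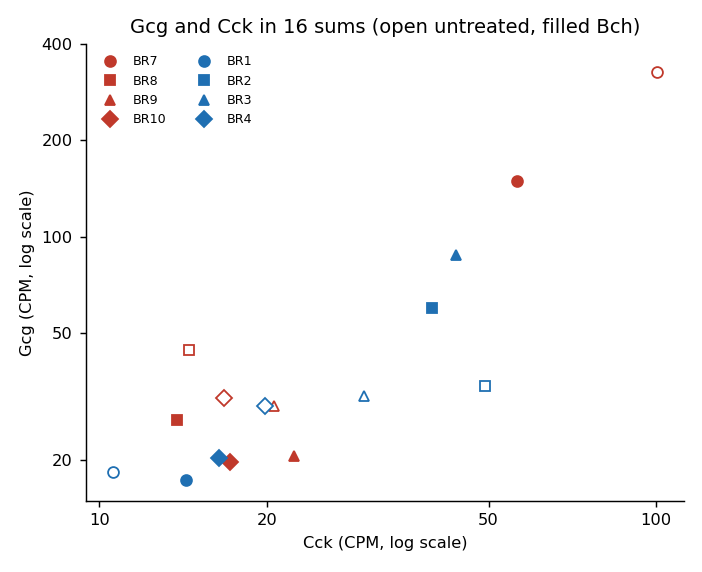
Gcg against Cck, both in CPM on log axes, in the 16 sums, with BR7-BR10 in red, BR1-BR4 in blue, untreated open and Bch filled. Both sums of BR7 lie at the upper right, at 328 and 149 CPM of Gcg, and BR2 and BR3 with Bch lie next to them.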

How the data were processed

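Per the paper's methods, the authors made 3′ libraries with UMIs, sequenced them on a NextSeq 500 and processed the reads with the Drop-seq pipeline against GRCm38 and the GENCODE M25 annotation, and they deposited raw UMI counts per gene and library. Blank cells of 1520 genes in technical replicate 2, which held at most 12 UMIs in replicate 1, were read as 0. Here the 32 libraries were summed to 16, scaled by TMM, and tested in R 4.3.3 with edgeR 4.0.16 (filterByExpr, robust quasi-likelihood, mouse as a block, Benjamini-Hochberg adjusted p of 0.05) in BR7-BR10 and BR1-BR4 separately, between untreated sets without a block (p-values of the 10 genes are not given, since their levels helped to choose them), and for the difference of responses over 16 sums. DESeq2 1.42.0 was an alternative. Log2 CPM used a prior count of 2. The SE of a fitted log2 difference is its absolute value divided by the square root of the quasi-likelihood F statistic, which is moderated over genes. Of the technical replicate pairs of the 10 genes with 20 or more UMIs, 96 in all, the mean chi-square was 1.05 on 1 degree of freedom.

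The pairing comes from the labels, where both treatments of a number are 1 mouse. Correlations of their deviations from the group means were 0.074, 0.165, -0.0019 and -0.022 in BR7 to BR10, and 0.256, 0.045, 0.055 and 0.099 in BR1 to BR4. P-values measure the spread between mice, moderated by that of the other genes. The 10 genes, the gene lists and the tests were chosen with earlier results of these data known. From the lists, the text names, by rule, the enteroendocrine genes called (there were 0), the 2 per direction with the smallest p in each set, the 2 per role with the highest mean CPM, the first 2 of each marker list and the 10 most like Gcg. Gene positions are from GENCODE M21 on the same build. Steps were tested on simulated counts.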

Additional observations from a re-analysis of the deposited data

Results flagged for a closer look

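In each group of 4 mice, a member's highest or lowest level was set beside the others by Dixon's criterion at the 95% level, which chance passes in about 1 of 20 independent groups. The 40 groups here were of 10 genes chosen by their levels in the same mice, so the 7 that passed are given as values and are not compared with that rate. Gcg stood apart in BR7, at 328 CPM untreated, where the other 3 mice held 29.6 to 44.1, and at 149 CPM with Bch, where they held 19.7 to 26.8. Insl5 stood apart in untreated BR7, at 33.3 CPM against 4.41 to 6.02, and in untreated BR3, at 7.04 CPM against 2.63 to 3.05, where 4 UMIs were counted. Among Bch-treated BR1-BR4, Sct stood apart in BR1 at 119 CPM against 67.3 to 73.0, Tph1 in BR1 at 4.18 CPM against 13.6 to 14.9, and Scg5 in BR4 at 1.99 CPM against 0.380 to 0.597, on 4 UMIs.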

How the results depend on the processing

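Under the alternatives, 185 of 187 values of the members' responses and 158 of 160 of their untreated levels moved by less than 1 SD between mice. Leaving out 1 of 4 mice cannot move a mean level by 1 SD of those mice, so this part of the count was fixed beforehand. Untreated Gcg in BR7-BR10 fell from 108 to 35.0 CPM without BR7 and still counted as unmoved, since the SD was 147. For responses with 1 mouse left out, the count says little for nearly the same reason. The Gcg response in BR7-BR10 ranged from -1.18, without the replicate block, to -0.66 on the log2 scale, and in BR1-BR4 from 0.14 to 0.77, and the Chga response in BR1-BR4 went from 0.20 to -0.05 with thinned counts. Of 14 fitted responses, 5 kept their sign under each alternative that fitted them, those of Gcg in both sets, Chgb and Fev in BR7-BR10 and Tph1 in BR1-BR4, the last from -0.45 to -0.08. The other 9 changed sign under at least 1, with ranges in BR7-BR10 of -0.18 to 1.02 for Tph1, -0.66 to 0.59 for Insl5, -0.29 to 0.10 for Pyy, -0.15 to 0.16 for Sct and -0.40 to 0.004 for Chga, and in BR1-BR4 of -0.27 to 0.14 for Chgb, -0.26 to 0.24 for Sct, -0.002 to 0.40 for Pyy and -0.05 to 0.28 for Chga. Between untreated sets the sign changed for Chgb without BR1, to -0.016 in a range of -0.016 to 0.59 over mice left out, and for Tph1 from -0.02 to 0.10 with technical replicate 2 alone and to values up to 0.29, in a range of -0.24 to 0.29, without a mouse (positive without BR3, BR4 or BR10).

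Over all genes, the count called in BR1-BR4, 2 in the main analysis, was 0 without the replicate block, with both sets in one fit and with thinned counts, 14 with DESeq2, 88 without the filter, 9 with technical replicate 1 alone, and 0 to 19 with a mouse left out (0 without BR1 or BR2, 5 without BR3 and 19 without BR4). In BR7-BR10 it was 0 to 4 with a mouse left out (3 without BR8, 4 without BR9, 1 without BR10). Between untreated sets, 150 became 234 without the filter, 3 with thinned counts, and 74 to 210 with a mouse left out. The difference of responses gave 1 without the filter. With technical replicates as separate libraries, which treats repeat libraries of a mouse as independent, counts were 170 in BR7-BR10, 338 in BR1-BR4, 955 between sets and 221 for the difference. For the other enteroendocrine genes the count was 0 in both sets under each alternative, except that DESeq2 gave them no adjusted p in BR1-BR4. The causes of these changes were not tested. Ranks of genes like Gcg, and the spread and shares of Gcg, without BR7, and mice counted by other scalings, were alternatives chosen after seeing the data. Scg5, with 0 to 8 UMIs a sum, and Neurod1, with 0 to 23, did not pass the filter in either set and were not fitted there.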
